A study of Mus musculus with 32 samples.

Results

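Polysome fractionation sorts messenger RNA by the number of ribosomes it carries. Transcripts that are being translated by several ribosomes sediment far into a sucrose gradient, in the heavy fractions, and transcripts that carry few or none stay near the top, in the light fractions. The cap-binding factor eIF4E brings capped transcripts to the ribosome, and growing fibroblasts in serum normally keep it active. Comparing heavy with light polysomal RNA from one culture state therefore shows how transcripts are spread over the gradient before any change of serum or of eIF4E.

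The comparison described here is that of heavy with light polysomal RNA from NIH 3T3 cells, an established mouse fibroblast line, grown in complete medium with serum and carrying no added eIF4E. It was chosen by the sample labels alone and takes in 8 of the 32 deposited array columns, those titled as heavy or light fraction of NIH 3T3 cells in the basal state. The heavy pool held gradient fractions 7 to 10 and the light pool fractions 4 to 6. The rest of the series comes from serum-starved NIH 3T3 cells (16 h without serum) and from NIH 3T3/4E cells, a line that ectopically overexpresses eIF4E, with and without serum. Each array was hybridised in 2 colours with a common reference of unfractionated poly(A) RNA from NIH 3T3 cultures in full medium. It stems from the same cells in the same serum state as the samples compared here.

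The deposited values are log ratios against that reference, read here as log2. Title numbers 1 and 2, and 3 and 4, were averaged, because within such a pair the same column was never below its partner. This left 2 heavy and 2 light samples, called samples 1 and 2 of each fraction, out of 16 in the series. The labels name no separate cultures for the samples of a fraction, so the p-values reflect only how far such samples lie apart, which may be technical. That spread was taken from all 16 samples, most of them from the other states. Whether a ratio is sample over reference or the reverse is not given in the sources used here. A positive heavy minus light difference means a higher deposited value in the heavy samples and does not say which fraction held more of the RNA. Values were centred on the median of their sample, so a shift of most transcripts from one fraction to the other could not be seen. Clone IDs are not paired with genes in the files, and the fibroblast markers could not be read. Clones are therefore named by ID only, at most 2 in each direction, and no sequence is printed.

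The samples of one fraction were more alike than any pair across fractions. Over the 15169 clones with a value in every sample, which share the reference and the array, the heavy samples correlated at r = 0.58 and the light samples at r = 0.62. Across fractions r was 0.47 for heavy 1 with light 1, 0.52 for heavy 1 with light 2 and 0.47 for heavy 2 with light 1. It was lowest, 0.28, for heavy 2 with light 2. The median absolute difference between replicates was 0.36 log2 units for heavy and 0.36 for light, and that between the mean of 2 heavy and the mean of 2 light samples was 0.37. These figures are not on one footing, since a mean of 2 samples varies less than a single sample.

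Differences between the fractions lay within a narrow band for most clones and had a longer positive tail. The middle of the distribution ran from -0.36 (25th percentile) to 0.37 (75th percentile), with a median of 0.01. The 1st percentile was -1.37 and the 99th was 1.65. A difference above 1 log2 unit was found at 992 clones (6.54%) and one below -1 at 785 (5.18%). Farther out the sides parted, with 255 clones above 1.5 and 74 below -1.5. All heavy values lay above all light values at 3460 clones (22.8% of those tested) and below them at 3521 (23.2%), and the fractions overlapped at the other 8188.

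Heavy and light samples differed at 48 clones (0.316% of the 15169 tested) at an adjusted p under 0.05, by limma with Benjamini-Hochberg adjustment over all clones. Of these, 46 were positive (0.303%) and 2 were negative (0.0132%). The test took its spread from all 16 samples, with 8 residual degrees of freedom. Without adjustment 2314 clones (15.3%) had a p under 0.05, 1185 of them positive and 1129 negative, so the sides were nearly even there and unequal among the smallest p-values. At an unadjusted p under 0.001 there were 161 positive and 30 negative clones. Scaling changed both the number and the split. Quantile normalization gave 181 positive and 43 negative clones, and scaling each sample to 1 median absolute deviation gave 249 and 71. The adjusted p was 0.0146 at a single clone and exactly the same value, 0.0478, at 42 of the 48, close to the threshold. Some settings moved most of the list across it and others did not. Without centring 47 of the 48 still passed, without the filter on missing values all 48, and with a robust prior 41. When each plate of the clone collection was centred on its own median 1 clone passed, although the differences of the named clones stayed close to their size (H3003G02 from 2.21 to 2.28, H3090H01 from -1.88 to -1.77 and H3110G04 from -1.67 to -1.56, with adjusted p of 0.0641, 0.0628 and 0.0502 by limma). When only the 4 samples compared were fitted limma called 0 (2219 at an unadjusted p under 0.05). Leaving out 1 sample gave 32 clones without heavy 1, of which 13 were positive and 19 negative, and 71 without heavy 2 (66 and 5). It gave 24 without light 1 (15 and 9) and 19 without light 2 (10 and 9). Of those lists 3, 9, 6 and 1 clones were among the 48.

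**Figure D1:**
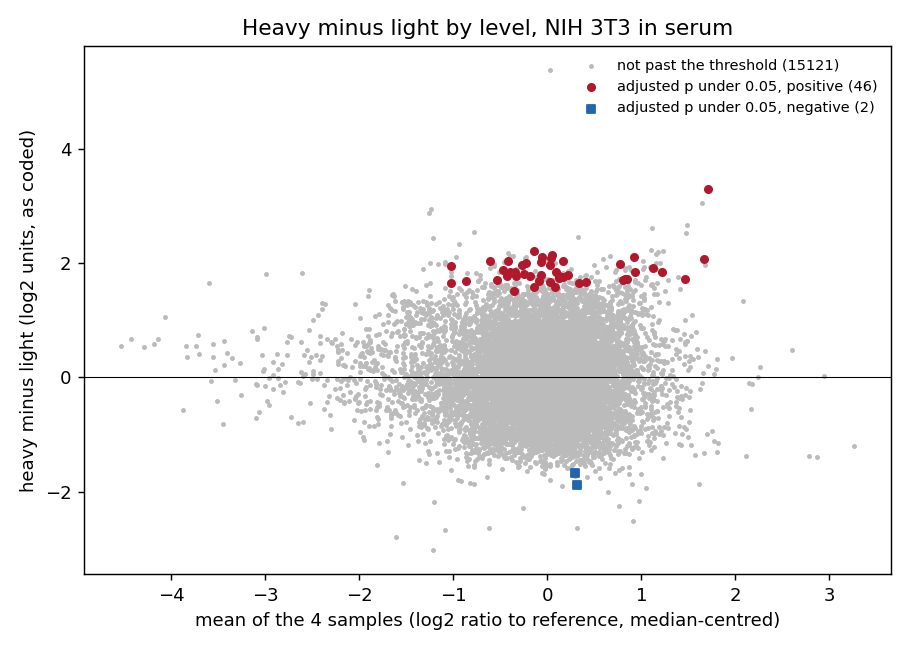
Heavy minus light difference (log2 units as coded, y axis) against the mean of the 4 samples (log2 ratio to the reference, x axis) for 15169 clones, 1 point each. The 46 positive clones past the threshold (red circles) span low to high levels, the 2 negative ones (blue squares) lie just above 0 on the level axis, and many clones with differences as large (grey) did not pass.

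Every called clone had a difference beyond 1.5 in size, but most differences of that size, 281 of 329, did not pass. Called positive differences ran from 1.51 to 3.29 with a median of 1.82, and 209 clones above 1.5 did not pass. The residual SD over the 16 samples had a median of 0.28 among the 48 clones and 0.39 among all clones. Among clones beyond 1.5 that were not called it was 0.55. It was also lower on the positive than on the negative side, 0.45 for clones above 1.5 and 0.65 for those below -1.5. The largest positive difference of all, 5.38, had an adjusted p of 0.117 by limma. The heavy samples of that clone stood at 3.09 and 2.35 and the light ones at 1.27 and -6.59, so its difference rested mainly on 1 light value. The most negative difference, -3.03, had an adjusted p of 0.0864 by limma, with heavy values of -1.13 and -4.34 against light values of 0.19 and 0.40.

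Most of the positive clones lay above the sample median in the heavy and below it in the light fraction. This held in every one of the 4 samples for 34 of the 46, against 7.18% of all clones. A further 4 stood above the median in all samples, 1 stood below it in all, and 7 had other patterns. Their heavy means ran from -0.19 to 3.35 with a median of 0.97, and their light means from -2.00 to 0.63 with a median of -0.95. The fractions thus lay on opposite sides of the sample median for most of them. These levels come from the samples that chose the clones and are a description.

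Clone H3076B11 had the largest difference among the clones that passed. It stood at 4.03 and 2.68 in the heavy samples and at 0.00 and 0.13 in the light samples. Both heavy values were far above both light values. The difference was 3.29 (SE 0.41, adjusted p = 0.0146 by limma), with means of 3.35 ± 0.95 in heavy and 0.07 ± 0.10 in light (SD, n = 2 each). In the 12 samples of the other states the clone stayed between -0.55 and 0.41, and its heavy minus light difference was -0.11 in NIH 3T3 starved, 0.06 in 4E basal and 0.26 in 4E starved cells. In each of the heavy samples that stood apart, its paired columns held one and the same value (gap 0), whereas the light samples had gaps of 0.33 and 0.32. Equal columns in both heavy samples were found at 2.96% of all clones, and their part in the result was not tested. With each of the 4 samples left out in turn its difference ran from 2.61 (without heavy 1) to 3.96 (without heavy 2). Such a fit leaves a single sample in 1 fraction, so the spread of that pair no longer counts. The clone did not pass in the fit of the 8 NIH 3T3 basal and 4E starved samples (adjusted p = 0.183 by limma). It did not pass in that of the 4 samples alone either (adjusted p = 0.235 by limma). Nor did it pass with same-numbered heavy and light samples fitted as a block (adjusted p = 0.111 by limma). With the numbers crossed in all states its adjusted p was 0.0932 by limma. With them crossed in NIH 3T3 basal cells only it was 0.043 by limma. Crossing was chosen after seeing the data. The labels do not say which samples pair.

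Clone H3003G02 stood at 0.98 and 0.93 in the heavy and at -1.12 and -1.37 in the light samples, with little spread on either side. Heavy lay above light without overlap there, as at 22.8% of the clones tested. The difference was 2.21 (SE 0.39, adjusted p = 0.0478 by limma). It recurred in the other states, at 2.14 in NIH 3T3 starved, 1.83 in 4E basal and 1.77 in 4E starved cells, and the 8 heavy samples of the series (0.44 to 1.37) all lay above the 8 light ones (-1.69 to -0.54). Without any 1 of the 4 samples its adjusted p was 0.0733 (without light 1) to 0.211 (without light 2) by limma.

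Both negative clones were also separated without overlap, as were all 48 called clones. All heavy values lay below all light values at 23.2% of the clones tested. Clone H3090H01 stood at -0.40 and -0.84 in the heavy and at 1.57 and 0.94 in the light samples, a difference of -1.88 (SE 0.36, adjusted p = 0.0478 by limma). Its paired columns were equal in both light samples, as they were at 2.4% of all clones, and their part in the result was not tested. With the higher column of each pair its adjusted p was 0.0675 by limma. Its sign was the same in every other state, with -1.27 in NIH 3T3 starved, -1.49 in 4E basal and -1.45 in 4E starved cells. Clone H3110G04 stood at -0.35 and -0.73 in the heavy and at 1.06 and 1.19 in the light samples, a difference of -1.67 (SE 0.28, adjusted p = 0.0478 by limma). It had -0.50 in NIH 3T3 starved, -1.13 in 4E starved and 0.00 in 4E basal cells, where its 4 values lay between -0.09 and 0.20. Leaving out any 1 of the 4 samples took the negative clones above the threshold, with an adjusted p by limma of 0.0935 to 0.183 for H3090H01 and 0.0538 to 0.189 for H3110G04.

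**Figure D2:**
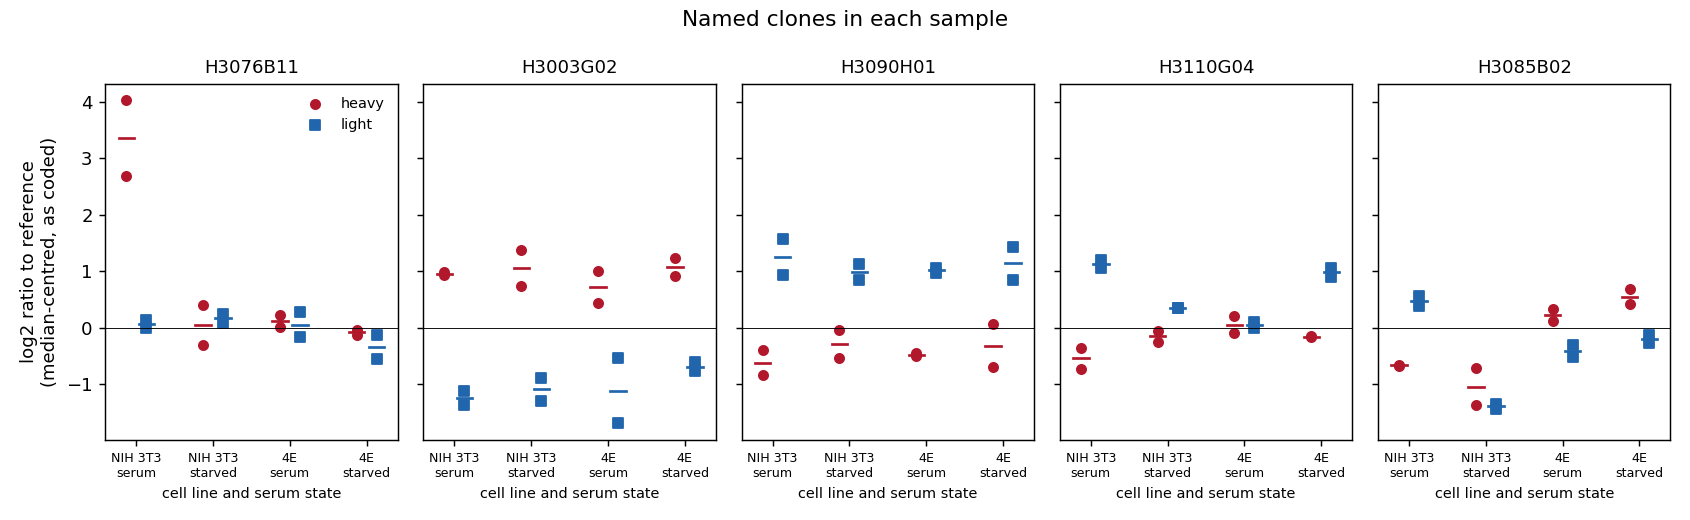
Median-centred log2 ratio to the reference (y axis, as coded) of the named clones in the 16 samples, by cell line and serum state (x axis). Circles are heavy and squares light samples, and bars are means of 2. H3076B11 is high only in the heavy samples of NIH 3T3 in serum (4.03 and 2.68), whereas H3003G02 and H3090H01 keep their fractions apart in each state.

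The other states of the series share no polysome sample with this comparison, so the 48 clones could be followed there. Of the 46 positive clones, 43 were positive in NIH 3T3 starved, 42 in 4E basal and 42 in 4E starved cells. Among all clones 52.5%, 51% and 49.9% were positive. The median difference of the 46 was 1.40, 1.09 and 1.59 in these states, and that of all clones lay within 0.03 of 0. By limma 12 of the 46 passed as positive in NIH 3T3 starved (0.191% of all clones did), 0 in 4E basal (0%; unadjusted, 1982 clones of either sign had a p under 0.05) and 27 in 4E starved cells (0.672%). At 23 of the 46 every one of the 6 heavy samples of the other states lay above every one of their 6 light samples, which held for 2.36% of all clones. For the 48 together, 41 had the same sign in all 4 states, as did 36.4% of all clones. The threshold used the spread of the same 16 samples, so clones that vary little in the other states were more likely to be called.

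The positive clones fell into 3 patterns over the states, sorted after their values were seen and given with no test. At 37 clones the difference was positive in each state, at no less than 0.40, with medians of 1.55 in NIH 3T3 starved, 1.21 in 4E basal and 1.64 in 4E starved cells. Their heavy means had a median of 0.86 and their light means one of -1.02, about equally far from the sample median.

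At 5 clones the difference was within 0.5 of 0 in all 3 other states, against 1.70 to 3.29 in NIH 3T3 basal cells. Clone H3076B11 was one of them. In these clones the light samples stood near the median, with means between -0.05 and 0.63, and the heavy means ran from 1.66 to 3.35. Both heavy samples of NIH 3T3 in serum lay above each of the 14 other samples at all 5. Their lowest heavy value was 1.35 and the highest value anywhere else was 0.81. Such an order was found at 273 clones in the whole table (1.8%) and at 15 of the 46. Equal columns in at least 1 of these heavy samples occurred at 4 of the 5 clones, at 4 of the 37 and at 29% of all clones. The 5 came from 4 plates, 2 of them from plate 76.

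At the other 4 clones the difference was within 0.5 of 0 in NIH 3T3 starved and 4E basal cells, and between 1.39 and 1.78 in 4E starved cells. Their heavy values had a median of 2.04 in NIH 3T3 basal and 1.80 in 4E starved cells but of -0.03 in the other states. The light medians were 0.11, -0.04 and -0.05. These medians did not hold for every clone. A clone among the 4 stood at 0.80 and 0.75 in the heavy and at -1.11 and -1.34 in the light samples of NIH 3T3 basal cells. NIH 3T3 basal and 4E starved are also the states whose 8 samples hold values in the control rows of the table, which are empty in the remaining 8. This technical difference and the pattern of these 4 clones cannot be told apart.

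**Figure D3:**
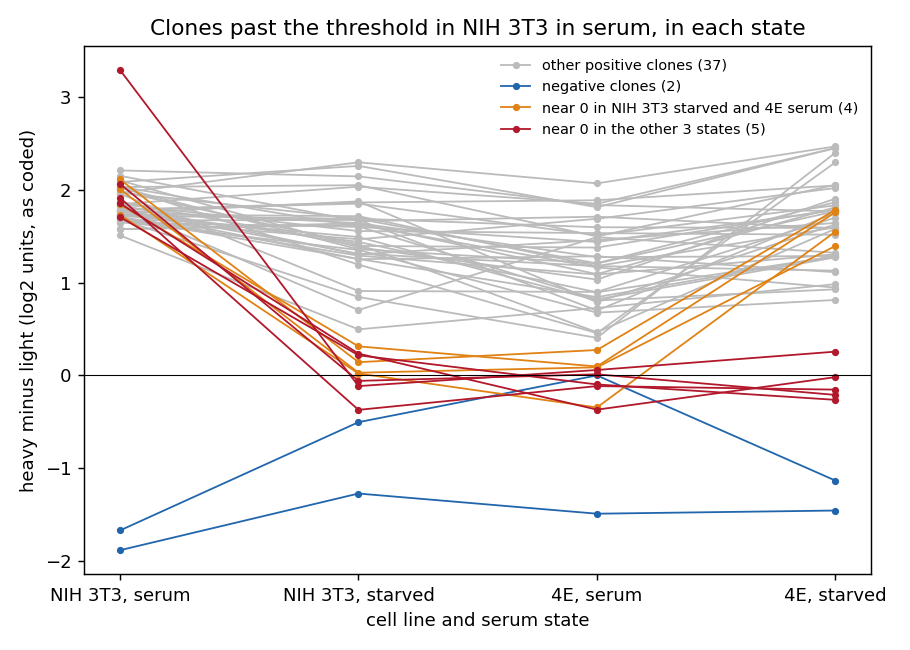
Heavy minus light difference (log2 units as coded, y axis) of the 48 clones past the threshold in NIH 3T3 in serum, in the 4 combinations of cell line and serum state (x axis), 1 line per clone. Grey lines (37) stay above 0 throughout, red lines (5) drop to within 0.5 of 0 in the other states, orange lines (4) do so in NIH 3T3 starved and 4E in serum, and blue lines (2) are the negative clones.

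No clone was shown to differ in its heavy minus light difference between NIH 3T3 in serum and the mean of the other 3 states. By limma 0 clones (0%) passed, and 475 (3.13%) had an unadjusted p under 0.05, 282 with a larger and 193 with a smaller value in NIH 3T3 basal cells. The median 95% half-width of this contrast was 0.97 log2 units. That width belongs to an unadjusted p of 0.05, and the adjustment over all clones asked for larger differences. That 0 clones passed therefore does not exclude differences above that size. H3076B11 came nearest, at 3.22 (SE 0.47, 95% interval 2.22 to 4.23, adjusted p = 0.0995 by limma). It passed after quantile normalization (adjusted p = 0.00623 by limma). With each column as a replicate it also passed (adjusted p = 4.98e-07 by limma), but that setting counts the paired columns as independent. In the other fits of all 16 samples it did not pass, with an adjusted p of 0.0643 (robust prior) to 0.657 (replicate block) by limma. Its value was 2.55 without heavy 1 and 3.90 without heavy 2. On the negative side clone H3085B02 had the smallest p, at -1.72 (SE 0.35, adjusted p = 0.824 by limma). Its values were -0.68 and -0.65 in the heavy and 0.56 and 0.38 in the light samples of NIH 3T3 in serum. Leaving out 1 sample gave 16 clones (without heavy 1), 50 (without heavy 2), 2 (without light 1) or 13 (without light 2).

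Differences were larger at clones far from the reference. Sorted by the mean of the 4 samples into 10 equal groups, clones of the sixth group (0.02 to 0.10) had a median absolute deviation of 0.39 for heavy minus light. It was 0.75 in the lowest group (-4.54 to -0.68) and 0.79 in the highest (0.51 to 3.26). The residual SD over the 16 samples was also larger at the ends. Its median was 0.51 in the lowest group, 0.36 in the sixth and 0.43 in the highest. How much of the wider differences comes from this scatter was not tested. Level and difference come from the same 4 samples, so 1 extreme value shifts both. The excess of positive differences also sat at the ends, with 182 clones above 1 against 100 below -1 in the lowest group and 200 against 121 in the highest. In the sixth group the numbers were 53 and 57. The 46 positive clones were found in each of the 10 groups, 11 of them in the highest.

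The clone ID gives the plate and well of the collection, a feature that the comparison did not use. Positive clones came mostly from plates with low numbers. Plates 1 to 53 held 29 of the 46, plates 54 to 106 held 3 and plates 107 to 159 held 14, from 5069, 5063 and 5037 clones tested. The share of clones with a difference above 1 was 8.74%, 4.27% and 6.61% in these ranges, and that below -1 was 4.64%, 4.52% and 6.37%. The same order of the shares above 1 was seen in NIH 3T3 starved (8.27%, 3.79% and 5.8%), 4E basal (5.52%, 3.42% and 5.24%) and 4E starved cells (9%, 4.76% and 6.83%). Plate medians ran from -0.26 (plate 9) to 0.36 (plate 26) and were above 0 on 41, 23 and 21 of the 53 plates in each range. Over the 159 plates they correlated with the medians of the other states at r of 0.45 (4E basal) to 0.49 (4E starved), as a description, since the plates share their place on the arrays in every sample. Plates took 3.03% of the sum of squares of the differences, well rows 0.465% and well columns 0.799%. Sources used here do not give the plate order on the slides, whose part in the result was not tested.

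**Figure D4:**
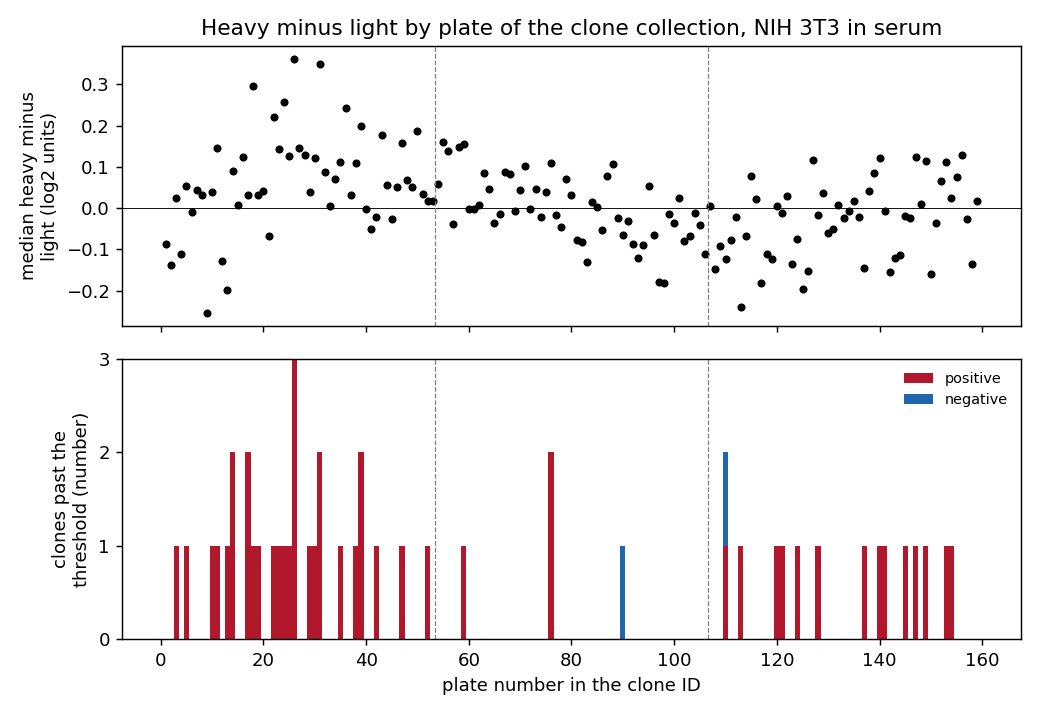
Top, median heavy minus light difference (log2 units as coded) of each of the 159 plates against the plate number in the clone ID. Bottom, number of clones past the threshold on each plate (red positive, blue negative); dashed lines part the ranges 1 to 53, 54 to 106 and 107 to 159, which hold 29, 3 and 14 positive clones.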

How the data were processed

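The authors deposited log ratios of each polysome sample against a common reference, made by 2-colour hybridisation per the labels, and they were taken as log2 values. Sources used here do not state log base, centring, direction, scanner, background correction or spot filters. The largest absolute value was 11.3. The table held 15249 rows, 15247 of them clones and 2 controls. Column pairs (tolerance 1e-06 for equal values) were averaged, 78 clones with a missing value were left out, and samples were centred on their medians, which lay between -0.005 and 0.016 in the 4 samples compared. Group means of all 8 groups were fitted with limma 3.58.1 under R 4.3.3, with empirical Bayes moderation (prior degrees of freedom 6.51). The fit was tested on simulated data. The comparison, lists and alternatives were chosen with earlier results of these data known. Clones were named as the 2 largest differences past an adjusted p of 0.05 in each direction, and the smallest p in each direction against the other states. Of the clone IDs 0 were found in the RefSeq gene table (GRCm38.p6), so the gene lists and markers could not be run. The number of arrays limits the precision. Alternatives covered centring and scaling, plates, columns, filters, samples fitted, replicate block, weights, prior and each sample left out.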

Additional observations from a re-analysis of the deposited data

Results flagged for a closer look

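Clone H3085B02 had all heavy samples below all light samples in NIH 3T3 in serum, with a heavy minus light difference of -1.14, and all heavy samples above all light samples in both states of the eIF4E-overexpressing line. The difference there was 0.64 in 4E basal and 0.75 in 4E starved cells. In NIH 3T3 starved cells it was also positive, at 0.35, with heavy values of -0.71 and -1.37 and light values of -1.43 and -1.35 that overlapped. The clone was chosen for the smallest p on the negative side against the other states, a choice that favours such a pattern. How many of all clones share the pattern was not counted. The differences between single states were not tested for this clone. Against the mean of the other 3 states its adjusted p was 0.824 by limma. Groups of 2 samples are too small to look for outlying samples.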

How the results depend on the processing

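The count of 48 clones kept within 1.5 times without centring (47), without the filter (48) and with a robust prior (45). It also did with the higher column of each pair (34, of which 28 were among the 48). It was 224 after quantile normalization, 320 after scaling each sample to 1 median absolute deviation, 181 with array weights and 136 among the 8519 clones with unequal columns. It fell to 1 with plates centred and to 1 with the lower column of each pair, where the differences of H3003G02, H3090H01 and H3110G04 stayed at 2.15, -1.93 and -1.67 (adjusted p of 0.0796 each by limma). With each column as a replicate, which counts the paired columns as independent, it was 3681 (1803 positive, 1878 negative). The fit of NIH 3T3 basal and 4E starved samples and that of the 4 samples alone each called 0 by limma (2072 and 2219 at an unadjusted p under 0.05), with fewer degrees of freedom. Leaving out 1 sample gave 19 to 71. The number of clones that differed from the other 3 states was 0, but 1 with quantile normalization, 334 with each column as a replicate and 2 to 50 with 1 sample left out. That 41 of the 48 clones had the same sign in all states moved to between 40 and 42 where all 48 were fitted, and to 32 of 34 among those with unequal columns. The fits of fewer samples give no value for it. No named clone changed sign. Labels do not say that shared title numbers pair the samples. With a replicate block limma called 0 (2335 at an unadjusted p under 0.05). The deviations of same-numbered heavy and light samples correlated across clones at -0.33 in NIH 3T3 basal cells. In the other states the value was 0.36 (NIH 3T3 starved), 0.21 (4E basal) and 0.01 (4E starved). Crossed pairing, chosen after seeing the data, gave 0 clones (2125 unadjusted), or 3 when crossed in NIH 3T3 basal cells only.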

Other observations

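The control rows, a buffer (3XSSC) and Arabidopsis, were filled in for NIH 3T3 cells in serum. The buffer row averaged 1.25 and 0.10 in the heavy and 0.60 and 0.04 in the light samples, before centring. The Arabidopsis row averaged 2.34 and 1.25 in the heavy and -0.22 and 1.10 in the light samples. The paired columns of these rows lay 1.91 to 5.33 log2 units apart, while the gap of clones had a median of 0.15 and a 99th percentile of 1.49 in the same samples.

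Where the paired columns of a clone held one value, levels beyond 2 log2 units were more frequent in each of the 4 samples. In heavy 1 their share was 5.53% with equal and 1.6% with unequal columns, and in heavy 2 it was 2.15% and 1.67%. In light 1 it was 2.1% and 1.42%, and in light 2 it was 3.45% and 3.03%. Among the 449 clones with equal columns in both heavy samples, 10.7% had a heavy minus light difference above 1 and 2.45% one below -1. Among the 8519 clones with unequal columns in all 4 samples the shares were 7.89% and 6.8%.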
